A study of Mus musculus with 4 samples.

Results

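The mitochondrial β-oxidation spiral is the set of matrix and inner membrane enzymes that shorten an acyl-CoA and pass the electrons on. The 10 genes described here encode these enzymes. They were chosen by name, for the step and the chain length they handle, with earlier results of these data known. They are Acadvl, Acadl, Hadha and Hadhb for long chains, Acadm and Acaa2 for medium chains, Acads, Hadh and Echs1 for short chains, and Etfdh for the handover of electrons. Each was found once among the 55401 gene models of the files, by its Ensembl identifier. All 10 also passed the filter on low counts, which left 14635 genes to test. None of the 10 was called different between KO and Control cells (quasi-likelihood test of edgeR on estimated counts, Benjamini-Hochberg adjusted p under 0.05), where 0.663% of all tested genes were. On counts 8 of the 10 had a fold change below 0, as did 49.1% of all tested genes, and 5 to 6 of the 10 did where transcript length was taken into account.

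RNA-Seq was performed on sorted mouse bone marrow cells. The labels give the cell type as ltHSC, long-term hematopoietic stem cells, while the study's text speaks of hematopoietic stem and progenitor cells (HSPCs), a wider class. The comparison asked how loss of Cpt1a changes gene expression in these cells, and here it asks whether the enzymes that act after CPT1A differ. CPT1A couples long-chain fatty acids to carnitine at the outer mitochondrial membrane, the step that admits them to the organelle. There were 2 KO libraries and 2 Control libraries. By the study's methods, KO mice were Cpt1a fl/fl mice that also carried Vav1-Cre, a recombinase driven by a promoter active across the blood system, so the deletion was not limited to stem cells. Control mice were Cpt1a fl/fl mice by the study's text, and the labels give their genotype as WT. Both lines were kept on a C57BL/6, CD45.2 background and were studied as adults of both sexes. How many mice went into a library is not stated in those sources. Nor does any label call the replicates separate animals, and the spread behind each p-value may therefore be technical.

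In β-oxidation, an acyl-CoA dehydrogenase first puts a double bond into the chain. A hydratase adds water, a second dehydrogenase makes a ketone, and a thiolase cuts off acetyl-CoA, after which the shortened chain enters the next round. VLCAD (Acadvl) and the trifunctional protein (Hadha and Hadhb) sit at the inner membrane and take long chains, and soluble matrix enzymes take over as the chain gets shorter. Electrons from the first step leave through the electron transfer flavoprotein (ETF) and its oxidoreductase (Etfdh) to ubiquinone. Inherited defects of most of these enzymes are known in humans, and HSCs have been studied for their use of fatty acid oxidation. Several of these genes, with Acadm among the best known, are targets of PPAR nuclear receptors in other tissues.

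The genes of both trifunctional protein subunits, Hadha and Hadhb, start back to back on opposite strands of chromosome 5. The stretch between their start sites in the GENCODE M21 annotation is shown because it lies upstream of both. It runs over chr5:30155163-30155247 on the plus strand (RefSeq sequence of GRCm38.p6, GC content 69.4%), and capitals mark the 2 matches to GGGCGG, the GC box letters.
Hadha-Hadhb stretch: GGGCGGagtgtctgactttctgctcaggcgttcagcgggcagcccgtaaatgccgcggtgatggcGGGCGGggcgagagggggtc

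The 250 bases before the RefSeq start site of Acadm are shown because Acadm had the lowest fold change of the 10 genes. They run over chr3:153944644-153944893 and are written 5′ to 3′ on the minus strand (RefSeq, GRCm38.p6, GC content 64.0%). Capitals mark the only match to AGGTCA on either strand, the letters at the core of nuclear receptor sites, here read as TGACCT.
Acadm upstream: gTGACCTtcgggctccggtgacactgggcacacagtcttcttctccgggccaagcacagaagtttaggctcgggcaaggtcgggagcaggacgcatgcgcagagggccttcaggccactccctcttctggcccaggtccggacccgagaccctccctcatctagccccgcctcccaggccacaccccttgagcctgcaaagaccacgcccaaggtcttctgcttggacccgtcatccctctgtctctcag

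RefSeq windows of 300 bases, 250 before and 50 after a start site, were found for 9 of the 10 genes, with none for Acaa2. Both strands were searched. AGGTCA was in 3 of the 9 windows (Acadvl, Acadm and Echs1), against 16.3% of all 32851 windows. The same 6 letters repeated in 1 direction with 1 base between the copies, the form that PPARs are known to bind, were in 0 of the 9 windows and in 0.0396% of all windows. TCAAGGTCA, the letters known for estrogen-related receptors, was in 0 of the 9 and in 0.423% of all windows, and its last 6 letters are AGGTCA. The GC box letters GGGCGG were in 7 of the 9 and in 35.7% of all windows, where matches can fall on either strand and more than once. The windows of these genes were rich in GC, at 57.3% (Etfdh) to 70.3% (Acadl) for all but Acadvl (50.7%). The median over all windows was 52.7%, and the part of GC content in these matches was not tested. The windows of Hadha and Hadhb share 228 bases, and the only match of Hadha is the same site as 1 of the matches of Hadhb. These windows are placed by RefSeq start sites, which differ from those of GENCODE M21 that bound the stretch above. The Hadha window therefore holds only 1 of the 2 matches in that stretch. CCAAT was in 2 (Hadh and Etfdh), against 37.4% of all windows, and CACGTG in 0, against 7.15%. The palindrome known as the NRF1 site was in 1 (Etfdh), against 0.971% of all windows. These are matches of letters in these windows and nothing more.

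All 10 genes were protein coding in GENCODE M21 (build GRCm38, coordinates from start to end of the gene). Acadvl lay on chromosome 11 from 70010183 to 70015411 on the minus strand, and Acadl on chromosome 1 from 66830839 to 66863277 on the minus strand. Hadha (chromosome 5, 30118304 to 30155162, minus strand) and Hadhb (chromosome 5, 30155248 to 30184593, plus strand) lay head to head with 85 bases between their start sites. Acadm lay on chromosome 3 from 153922357 to 153944632 on the minus strand, and Acaa2 on chromosome 18 from 74779197 to 74806208 on the plus strand. Acads was on chromosome 5 (115110299 to 115119346), Hadh on chromosome 3 (131233419 to 131272101), Echs1 on chromosome 7 (140105710 to 140116476) and Etfdh on chromosome 3 (79603788 to 79629500), all on the minus strand. The stretch between the start sites of Hadha and Hadhb is intergenic in that annotation. A start of an opposite-strand coding gene within 1000 bases was found for 4 of the 10 (Hadha, Hadhb, Echs1 and Etfdh), against 10.83% of the 22028 coding genes of the annotation. Hadha and Hadhb are each other's neighbour, so the same pair was counted for each of them, as was done for all coding genes. Echs1 and Etfdh overlap their neighbours, with starts at -678 and -422 bases.

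The estimated counts summed to 34083159 and 33909781 in KO libraries and to 20589218 and 23291747 in Control libraries, so the KO libraries were deeper. Across all tested genes, 66 were called higher in KO and 31 lower (edgeR, adjusted p under 0.05), 0.663% of genes. Cpt1a itself had 11.5 and 19.2 TPM in KO libraries, against 37.0 and 35.6 TPM in Control libraries. It fell by 1.60 on the log2 scale (SE 0.152, adjusted p = 0.00695), so the targeted gene was lower in the libraries labelled KO, with reads still assigned to it. Once transcript lengths were taken into account the value was -1.26 and the call was lost (adjusted p = 0.368). Markers of blood cell types differed between the groups, on lists that were not drawn up independently of these data. The summed TPM of 10 HSC markers was 528.8 and 538.1 in KO and 482.4 and 521.6 in Control. Kit alone gave 261.6 and 274.6 TPM of this in KO, and 253.0 and 231.6 TPM in Control. Of the 10, 7 had a negative fold change, against 49.1% of all tested genes, and the median was -0.17. At an unadjusted p under 0.05 in edgeR, 0 were higher (5.81% of all genes) and 2 lower (4.61%). None was at 0 in both libraries of a group, while 1 of the defining genes, Hoxb5, stayed at or under 1.12 TPM. All 8 of 8 B lineage markers were called higher (338.2 to 477.6 summed TPM in KO, against 49.6 to 64.3 in Control), and 4 of 8 mast cell markers (618.1 to 714.1, against 273.8 to 340.6, with Cma1 and Tpsb2 at 0 in both Control libraries). Kit stands on both the mast cell and the HSC list, and the 7 mast cell markers without it summed to 356.5 and 439.5 TPM in KO, against 87.6 and 42.2 TPM in Control. Called lower in KO were 4 of 8 erythroid markers (236.3 to 315.7, against 683.3 to 725.9) and 1 of 8 neutrophil markers (5876 to 5949, against 7424 to 10930). Control replicate 2 stood apart in 8 immediate early genes, picked as a list of handling stress genes. They summed to 6188 TPM there, against 352.0 to 428.4 TPM in KO and 539.6 TPM in Control replicate 1. No source used here says how this library was handled, and the cause was not tested. In bulk RNA, fewer cells of a type and less RNA per cell cannot be told apart, and the part of these markers in the results below was not tested.

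The spiral genes were well expressed. Their estimated counts lay between 892 and 6592 per library, and their levels between 35.0 and 163.3 TPM (scaled to gene length and to the same sum in every library), which placed them at percentiles 68.6 to 94.1 of the tested genes in a library. Over all 4 libraries, Acadm (mean 117.3 TPM), Hadha (109.7 TPM) and Acadl (97.0 TPM) stood highest, and their ranges overlapped. In KO alone, Hadha (mean 110.2 TPM) and Acadl (93.8 TPM) stood above Acadm (90.7 TPM), which led in Control (143.9 TPM). Hadh came next at 80.5 TPM, and its range from 77.6 to 82.9 TPM met neither that of Acadl above nor that of Echs1 below. The Hadh range lay within the wider range of Hadhb, from 53.1 to 84.8 TPM. Echs1 (68.3 TPM), Hadhb (67.1 TPM), Acaa2 (66.4 TPM), Acads (57.8 TPM) and Acadvl (53.2 TPM) followed, each overlapping its neighbour. Etfdh had the lowest mean at 40.2 TPM, and its highest library (45.0 TPM) lay under the lowest of Acadvl (47.5 TPM). The range of Acads, from 36.9 to 77.2 TPM, overlapped that of Etfdh. In Control replicate 1, Acads (36.9 TPM) was lower than Etfdh (45.0 TPM).

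**Figure D1:**
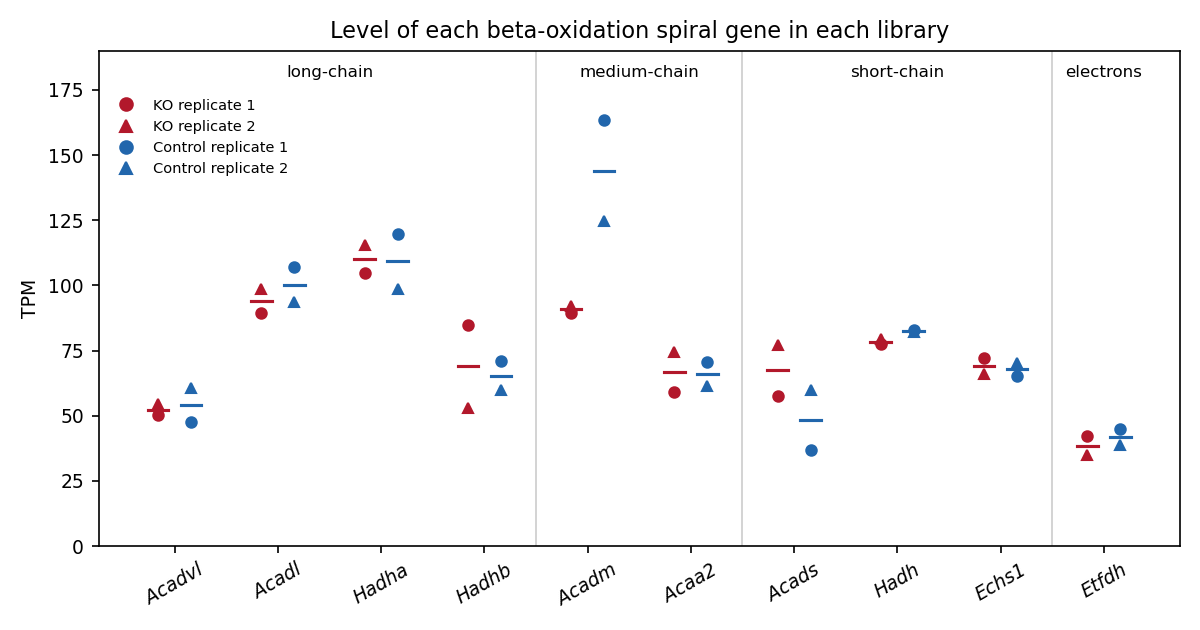
TPM of each of the 10 spiral genes (x axis, by chain length) in each library. Red symbols on the left are KO and blue symbols on the right are Control, circles are replicate 1 and triangles replicate 2, and bars are the group mean. Both KO libraries lie under both Control libraries for Acadm and Hadh, and the groups overlap for the other 8 genes.

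Among the long-chain enzymes, no gene passed the test, and all 4 fold changes were negative on counts, as were 49.1% of all tested genes. Of the 4, Hadhb turned to 0.058 when transcript lengths were used as an offset, and in limma on log2(TPM + 1) Hadha stood at 0.0171 and Hadhb at 0.0445. Acadvl encodes very long-chain acyl-CoA dehydrogenase, which starts the spiral for the longest chains taken up by mitochondria. It had 50.2 and 54.4 TPM in KO, against 47.5 and 60.8 TPM in Control, so that both KO values fell between the Control values. Its log2 fold change was -0.15 (SE 0.164, 95% interval -0.53 to 0.23, edgeR adjusted p = 0.870). Exons of Acadvl share 1151 bases with Dvl2 on the opposite strand, and no source used here says whether the counting used strand. The estimated counts of both genes were whole numbers in every library, and the posterior SD of the Acadvl count was 0. No reads were thus divided between them. Whether any read of the overlap was given to the wrong gene was not tested.

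Acadl encodes long-chain acyl-CoA dehydrogenase, which in mouse works beside VLCAD. Its levels were 89.2 and 98.4 TPM in KO, against 106.9 and 93.4 TPM in Control, and the groups overlapped. Its log2 difference was -0.13 (SE 0.129, interval -0.43 to 0.17, adjusted p = 0.828). The ratio of Acadl to Acadvl was 1.78 and 1.81 by TPM in KO, against 2.25 and 1.54 in Control, so the Control libraries spanned the KO values.

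Hadha and Hadhb encode the α and β subunits of the trifunctional protein, which carries out the last 3 steps on long chains, the hydratase and dehydrogenase steps by Hadha and the thiolase step by Hadhb. Hadha had 104.8 and 115.5 TPM in KO, against 119.7 and 98.7 TPM in Control, with overlap. In CPM, the count scaled only to the library total, it had 191.9 and 194.4 in KO, against 232.5 and 205.1 in Control, where both KO libraries were lower. Its log2 fold change on counts was -0.19 (SE 0.104, interval -0.43 to 0.05, adjusted p = 0.575). Hadhb had 84.8 and 53.1 TPM in KO, against 70.9 and 59.7 TPM in Control, and here the KO libraries spanned the Control libraries. The log2 fold change of Hadhb was -0.16 (SE 0.142, interval -0.49 to 0.17, adjusted p = 0.790). The head-to-head pair thus had fold changes that lay well within each other's intervals. The ratio of Hadha to Hadhb was 1.24 and 2.18 by TPM in KO, against 1.69 and 1.65 in Control, but 2.45 and 2.86 by CPM in KO, against 2.72 and 2.66 in Control. The 2 KO libraries thus differed more in this ratio than the Control libraries on both scales. Hadhb had an effective length (the mean length of the transcripts that RSEM assigned, less the fragment length) of 1303 and 1782 bases in KO, against 1660 and 1771 bases in Control.

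Among the medium-chain enzymes, Acadm had the lowest fold change of the 10 genes and Acaa2 had almost none, and neither passed the test. Acadm encodes MCAD, the dehydrogenase whose deficiency is the best known inherited defect of β-oxidation in humans. It had 89.2 and 92.2 TPM in KO, against 163.3 and 124.5 TPM in Control, and 77.8 and 82.6 CPM in KO, against 98.5 and 93.0 CPM in Control. Both KO libraries were below both Control libraries on either scale, as was the case for 16.8% of all tested genes by TPM and 18.3% by CPM. The log2 fold change on counts was -0.27 (SE 0.129, interval -0.56 to 0.03), with an adjusted p of 0.528 (edgeR).

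The size of the Acadm difference depended on transcript length. Its effective length was 1228 and 1245 bases in KO, against 830 and 1025 bases in Control, a log2 ratio of 0.42. A ratio at least this high was seen in 7.09% of the 14634 tested genes with a length above 0 in every library, and the median over them was 0.00. Acadm has 10 annotated transcripts, and which of them the reads came from was not read from the files used here. When edgeR took these lengths into account, Acadm stood at -0.68 on the log2 scale (SE 0.190, 95% interval -1.14 to -0.22, adjusted p = 0.478). On log2(TPM + 1), limma gave -0.65 (adjusted p = 0.433). The value thus moved from -0.27 on counts to -0.68 and -0.65 with lengths, and it missed the adjusted threshold in each.

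Acaa2 encodes the soluble 3-ketoacyl-CoA thiolase of the matrix. It had 59.2 and 74.3 TPM in KO, against 70.5 and 61.5 TPM in Control. The log2 fold change was -0.02 (SE 0.181, interval -0.44 to 0.40, adjusted p = 0.994), and its sign turned when Control replicate 1 (0.07) or KO replicate 1 (0.15) was left out. The groups overlapped on both scales.

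Among the short-chain enzymes, 1 fold change was negative and 2 were positive, and none passed the test. Acads encodes short-chain acyl-CoA dehydrogenase, and it had the highest fold change of the 10 genes. It had 57.5 and 77.2 TPM in KO, against 36.9 and 59.7 TPM in Control, a range that overlapped because Control replicate 2 lay above KO replicate 1. Its log2 fold change was 0.20 (SE 0.241, interval -0.36 to 0.75, adjusted p = 0.891), the widest interval among the 10 genes. The sign of this value rested on Control replicate 1, which had 892 estimated counts of Acads. Its size depended on both Control libraries. Acads stood at -0.12 without Control replicate 1 and at 0.60 without Control replicate 2. The effective length of Acads also differed, with 1494 and 1264 bases in KO, against 1615 and 1610 bases in Control, and taking the lengths into account in edgeR gave 0.46.

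Hadh encodes the short-chain 3-hydroxyacyl-CoA dehydrogenase of the matrix. It was the most even gene between replicates, with 77.6 and 79.2 TPM in KO, against 82.9 and 82.2 TPM in Control. Both KO libraries were lower, by TPM and by CPM (84.6 and 87.7 in KO, against 92.6 and 93.1 in Control). Its fold change on the log2 scale was -0.12 (SE 0.126, interval -0.41 to 0.17, adjusted p = 0.853). The difference is thus small against the spread that the model allows a gene of this level.

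Echs1 encodes the short-chain enoyl-CoA hydratase, which also serves valine breakdown. It had 72.0 and 65.9 TPM in KO, against 65.2 and 70.3 TPM in Control, and the groups overlapped. On counts, the difference was 0.03 on the log2 scale (SE 0.147, interval -0.31 to 0.37, adjusted p = 0.985). Its head-to-head neighbour Paox, a polyamine oxidase gene with which its exons share 142 bases, had 31.9 and 26.6 TPM in KO, against 13.9 and 15.8 TPM in Control. The log2 fold change of Paox was 0.75 (SE 0.202, adjusted p = 0.258), which missed the threshold, so that a difference between the neighbours was not tested. The ratio of Hadh to Echs1 was 1.08 and 1.20 by TPM in KO, against 1.27 and 1.17 in Control.

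Etfdh encodes the membrane-bound oxidoreductase that receives electrons from all the acyl-CoA dehydrogenases by way of ETF. It had 42.0 and 35.0 TPM in KO, against 45.0 and 38.7 TPM in Control. The groups overlapped, and the log2 fold change was -0.13 (SE 0.177, interval -0.54 to 0.28, adjusted p = 0.902). The sign turned only without Control replicate 1 (0.028), and the value shrank to -0.0169 without KO replicate 2. Etfdh shares 278 exon bases with the opposite-strand gene 4930579G24Rik.

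Across the 10 genes, 0 were called in either direction, where 0.663% of all tested genes were called. At an unadjusted p under 0.05, 0 of the 10 passed in edgeR on counts, where 10.4% of all genes did. In DESeq2 2 passed (Hadha and Acadm), where 16.1% of all genes did. Acadm passed with lengths as an offset (8.5% of all genes) and in limma (9.11% to 9.44%), and Hadha and Acads passed in edgeR without Control replicate 2 (15.1%). The median log2 fold change was -0.13 over the 10 genes and 0.01 over all tested genes, and 8 of the 10 were negative (80.0%), against 49.1% of all genes. With transcript lengths in the edgeR fit 6 of the 10 were negative, and in limma on log2(TPM + 1) 5 were, with medians of -0.04 and -0.01. The median unsigned log2 fold change was 0.14, against 0.25 over all genes, many of which had far fewer counts. On counts, every 95% interval lay between -0.56 and 0.75, that is between 0.677-fold and 1.69-fold of Control. Changes of 2-fold in either direction thus lay outside each of these intervals. With lengths as an offset this no longer held for Acadm (lower bound -1.14) and Acads (upper bound 1.19). In TPM, KO was below Control in both libraries for 2 genes (16.8% of all genes) and above for 0 (23.1% of all genes), and in CPM below for 3 (18.3%) and above for 0 (23.6%).

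**Figure D2:**
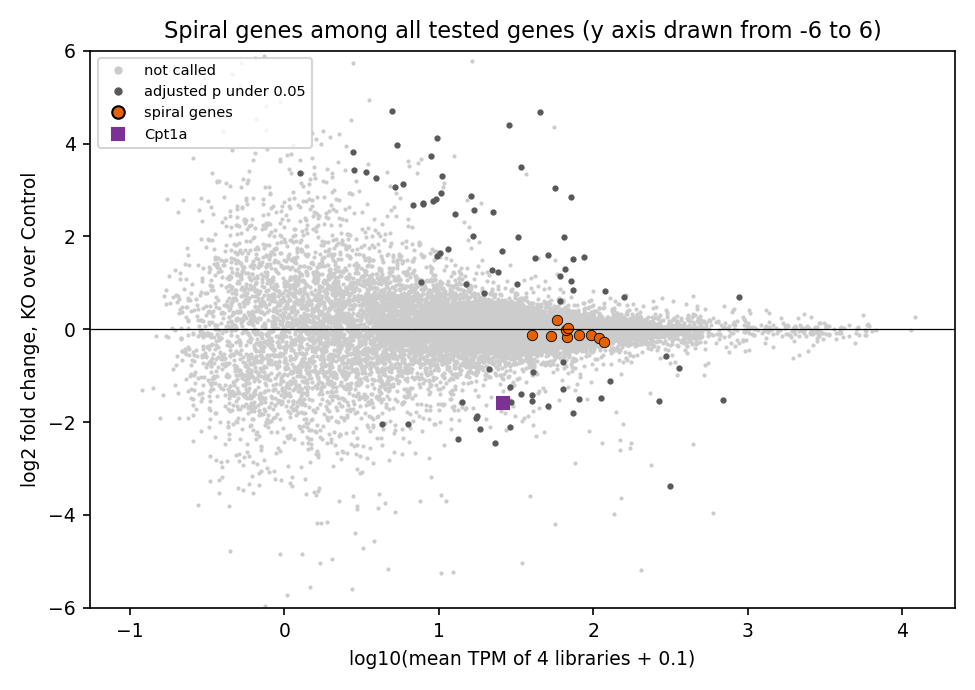
Log2 fold change of KO over Control (y axis) against log10 of the mean TPM plus 0.1 (x axis) for the tested genes, of which 438 lie beyond the drawn range of -6 to 6. The 10 spiral genes (orange) lie between -0.27 and 0.20 near the zero line, and Cpt1a (purple square) lies at -1.60.

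By chain length, the summed level of the 4 long-chain genes was 329.0 and 321.5 TPM in KO, against 345.0 and 312.7 TPM in Control. The sum of the 2 medium-chain genes was 148.4 and 166.6 TPM in KO, against 233.7 and 186.1 TPM in Control, with both KO libraries lower. The short-chain genes summed to 207.1 and 222.3 TPM in KO, against 185.0 and 212.2 TPM in Control. By CPM the pattern differed. Long-chain genes then had 437.2 and 449.0 CPM in KO, against 513.0 and 473.2 CPM in Control, with both KO libraries lower. Medium-chain genes had 130.6 and 149.6 CPM in KO, against 163.1 and 149.2 CPM in Control, and overlapped. No chain length class therefore stood apart on both scales. Exact permutation of 2 KO and 2 Control libraries has a lowest possible p of 0.333 for such a sum, and no test was run.

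The make-up of the 4 acyl-CoA dehydrogenases showed the same dependence on length. Acadm held 31.2% and 28.6% of their summed TPM in KO, against 46.0% and 36.8% in Control, and Acads 20.1% and 23.9% in KO, against 10.4% and 17.6% in Control. Both KO libraries lay on one side of both Control libraries in these shares. By CPM, Acadm held 25.4% and 24.3% in KO, against 29.2% and 26.3% in Control, and Acads 19.9% and 20.7% in KO, against 12.9% and 19.8% in Control. The sides were the same and the gaps were smaller, down to a difference of less than 1 percentage point between KO replicate 1 and Control replicate 2 for Acads. The Acadl share by TPM was also higher in both KO libraries (30.5% to 31.2%, against 27.6% to 30.1% in Control). By CPM it was 34.3% and 34.5% in KO, against 38.3% and 31.8% in Control, and overlapped. The shares of the 4 genes are parts of 1 sum, so a lower share of Acadm raises those of the others.

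**Figure D3:**
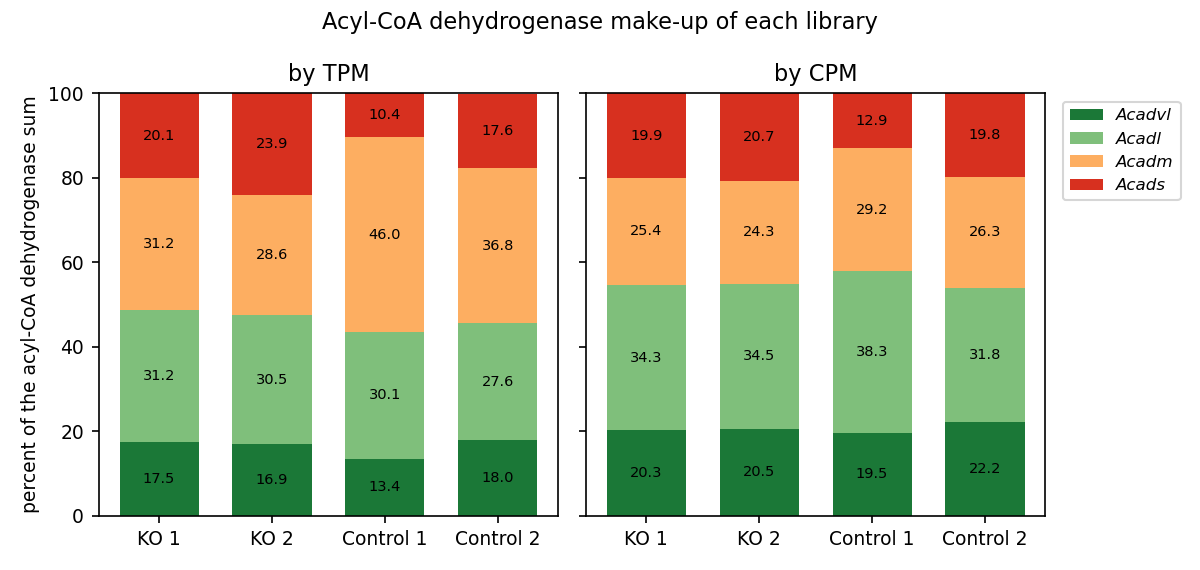
Share of each acyl-CoA dehydrogenase gene (percent, y axis) in their sum, for each library, by TPM on the left and by CPM on the right. The Acadm share is lower in KO than in Control libraries on both scales, 28.6% to 31.2% against 36.8% to 46.0% by TPM and 24.3% to 25.4% against 26.3% to 29.2% by CPM.

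The partners of the spiral were looked at in 6 lists with 29 genes, all of which were tested. Of these, 0 were called higher (0.451% of all genes) and 1 was called lower (0.212%), which was Cpt1a. Of the other 28 genes, 0 were called. At an unadjusted p under 0.05, 0 of them were higher (5.81% of all genes) and 1 was lower (4.61%). The median log2 fold change of these 28 was -0.09, and 15 were negative.

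That gene was Etfb, the β subunit of ETF. It had 470.2 and 398.6 TPM in KO, against 609.9 and 493.5 TPM in Control, with both KO libraries lower. Its estimate in edgeR was -0.27 on the log2 scale (SE 0.104, adjusted p = 0.435), while DESeq2 called it lower (adjusted p = 0.0379). Etfa, the α subunit, had 109.6 and 89.7 TPM in KO, against 141.3 and 83.0 TPM in Control, a log2 fold change of -0.15 (adjusted p = 0.911) that turned to 0.18 without Control replicate 1. The ratio of Etfb to Etfdh was 11.2 and 11.4 by TPM in KO, against 13.6 and 12.7 in Control, while by CPM it was 2.58 and 2.95 in KO, against 2.84 and 3.25 in Control, and overlapped. Both ETF subunits thus lay above their oxidoreductase in level per length in every library.

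The 3 enzymes that prepare unsaturated fatty acids for the spiral gave 0 calls. Eci1 and Eci2, which shift double bonds, both stood at -0.22 on the log2 scale, with SE of 0.291 for Eci1 (adjusted p = 0.898) and 0.157 for Eci2 (adjusted p = 0.700). Eci2 had 70.9 and 78.3 TPM in KO, against 94.7 and 85.8 TPM in Control, and both KO libraries were lower. Eci1 had 50.2 and 62.5 TPM in KO, against 96.2 and 48.6 TPM in Control, so its fold change rested on Control replicate 1 and was 0.25 without it.

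The 8 other acyl-CoA dehydrogenase genes gave 0 calls, with 3 negative. Acadsb, the dehydrogenase of short branched acyl-CoA from isoleucine, had the smallest p of them and a difference of 0.50 on the log2 scale (SE 0.231, adjusted p = 0.512). Its levels were 12.1 and 21.9 TPM in KO, against 7.18 and 24.8 TPM in Control, and overlapped, and with lengths as an offset the difference was 0.0761. Ivd, isovaleryl-CoA dehydrogenase of leucine breakdown, had 54.9 and 41.9 TPM in KO, against 74.8 and 140.3 TPM in Control, and on counts it stood at -0.27 (log2, SE 0.176, adjusted p = 0.664). Lengths moved the Ivd value from -0.27 to -1.18 as an offset (adjusted p = 0.478) and -1.08 in limma on log2(TPM + 1) (adjusted p = 0.494).

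The 6 ketothiolase and branched-chain genes gave 0 calls, with 2 negative. Hsd17b10, a dehydrogenase of isoleucine breakdown that is also a subunit of mitochondrial RNase P, had 129.7 and 146.0 TPM in KO, against 160.4 and 156.8 TPM in Control (log2 fold change -0.25, SE 0.143, adjusted p = 0.604). Hibadh, of valine breakdown, stood at -0.23 (adjusted p = 0.703), and its groups overlapped. In the 4 genes that lead propionyl-CoA to succinyl-CoA, 0 were called, with Mcee at -0.45 (SE 0.340, adjusted p = 0.731) and Pccb at -0.20 (SE 0.230, adjusted p = 0.873). Among the 6 genes of the carnitine shuttle, Cpt1a was the only call. Its isoforms Cpt1b and Cpt1c were near the lower end of detection, at 0.00 to 2.46 TPM in all libraries. Cpt2, which frees the acyl group again inside the mitochondrion, had 14.2 and 23.3 TPM in KO, against 20.6 and 15.1 TPM in Control. The carrier Slc25a20 had 35.4 and 30.5 TPM in KO, against 25.2 and 32.5 TPM in Control, and both groups overlapped for Cpt2 and Slc25a20.

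**Figure D4:**
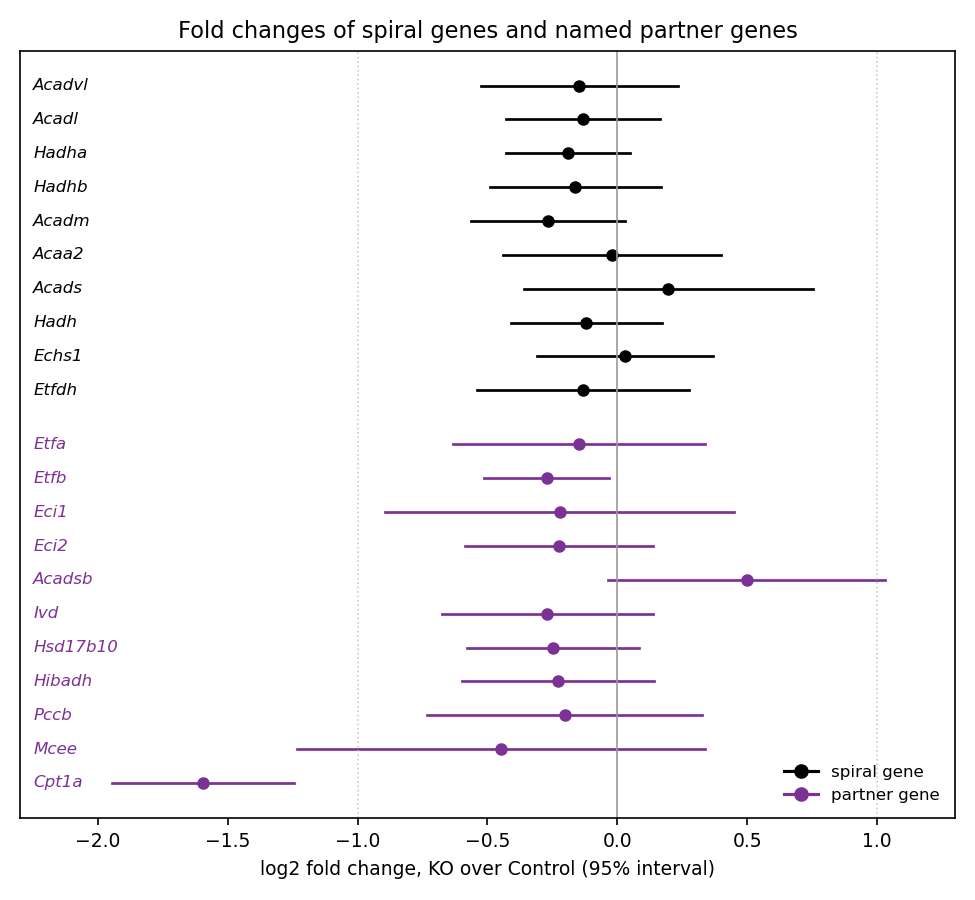
Log2 fold change of KO over Control (x axis) with its 95% interval from edgeR on counts for the 10 spiral genes (black) and 11 named partner genes (purple). On counts, every interval of the spiral genes spans 0 and stays inside -1 and 1 (dotted lines), and the interval of Cpt1a, from -1.95 to -1.24, lies outside.

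The tested genes whose pattern over the 4 libraries was most like the mean of the 10 were Cherp, Rpl13 and Pced1b, at distances of 0.0076, 0.0107 and 0.0121 (Euclidean distance over centred log2(CPM + 1)). The mean pattern itself was nearly flat, at -0.06 and -0.02 in KO, against 0.05 and 0.03 in Control.

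**Figure D5:**
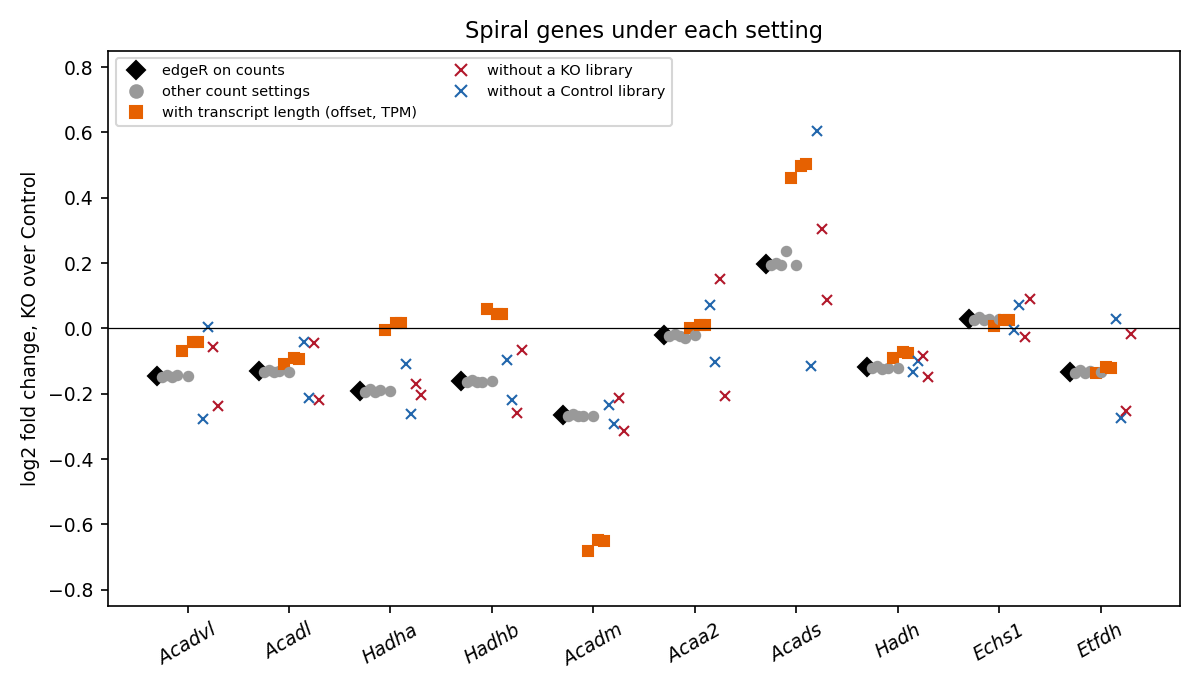
Log2 fold change of KO over Control (y axis) of each spiral gene (x axis) in edgeR on counts (black), in other count-based settings (grey), with transcript lengths (orange) and without 1 KO library (red crosses) or 1 Control library (blue crosses). Acadm is below 0 in every setting, from -0.68 to -0.21, while Acads runs from -0.12 to 0.60 and lies below 0 only without Control replicate 1.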

How the data were processed

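RNA-Seq of 2 KO and 2 Control libraries was analysed, and groups and replicate numbers were taken from the sample labels. Reads were aligned and counted with STAR and RSEM on mm10, by the submitters' processing notes. Their versions, the strand setting and the annotation were not given in the sources used here. Per gene, the authors deposited the expected count that RSEM estimates, not normalized, and the TPM, scaled to length and to the same sum per library. The effective length and the posterior mean count are other columns of the deposited files. RSEM divides reads that fit several transcripts or genes, which can move counts and lengths. The posterior SD was 0 for all spiral genes except Hadhb (at most 0.098% of its count). Each Hadhb transcript had 9.5% to 94.1% of its bases in matches to other gene models, 64 in all. Echs1 transcripts had up to 32.4%, in 72 models (matches of at least 75 bases at 95% identity or more). The part of these matches in the Hadhb lengths was not tested.

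Of 55401 gene models, 55141 were given a symbol by GENCODE M21. Expected counts were rounded and tested with the quasi-likelihood test of edgeR 4.0.16 (R 4.3.3, TMM factors 0.985 to 1.01, filterByExpr minimum count of 10, robust fit, genotype as the only term). Calls were made at an adjusted p under 0.05 (Benjamini-Hochberg over 14635 genes, two-sided). Intervals (95%) use the SE and the total degrees of freedom. The biological coefficient of variation was 0.471 as a common value over all tested genes. The SE of the spiral genes ran from 0.104 (Hadha) to 0.241 (Acads). CPM are counts scaled to the library total alone. Replicates differed beyond counting noise in 70.2% (KO) and 72.3% (Control) of genes, so none was counted as a repeat, and their correlation across genes was 0.980 (KO) and 0.962 (Control). The code was tested on simulated data.

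Alternatives were RLE factors, no count filter, DESeq2 1.42.0 (the study's tool), a replicate block, effective lengths as an offset, posterior mean counts, limma 3.58.1 on log2(TPM + 1) and log2(TPM + 0.1), and each library left out. The spiral genes, partner and marker lists were chosen with earlier results of these data known. All 10 spiral genes, Cpt1a, the called or else the 2 lowest-p genes of each partner list, and the 3 nearest patterns were named, and Paox, Hoxb5, Cpt1b, Cpt1c, Cpt2 and Slc25a20 were added after their values were seen. Partner gene Mmut is listed as Mut.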

Additional observations from a re-analysis of the deposited data

How the results depend on the processing

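Of 120 fold changes (10 spiral genes under 12 alternatives), 105 kept their direction, 15 turned and 0 were called. The lowest adjusted p was 0.139 (Acadm, DESeq2). With effective lengths as an offset, values turned for Hadhb (0.058) and Acaa2 (0.0021). In limma on log2(TPM + 1) and log2(TPM + 0.1) they turned for Hadha (0.0171 and 0.0172), Hadhb (0.0445 and 0.0446) and Acaa2 (0.0109 in each). Leaving out a library gave ranges of -0.28 to 0.00 for Acadvl (0.0044 without Control replicate 2), -0.21 to 0.15 for Acaa2, -0.12 to 0.60 for Acads, -0.0263 to 0.0896 for Echs1 and -0.27 to 0.028 for Etfdh. The sign turned for Acaa2, Acads, Echs1 and Etfdh without Control replicate 1, and for Acaa2 and Echs1 without KO replicate 1. Among partners, Etfa ran from -0.41 to 0.1772, Eci1 from -0.5767 to 0.2528 and Pccb from -0.4435 to 0.0884, each above 0 without Control replicate 1. The Cpt1a call was lost with lengths as an offset (-1.26, adjusted p = 0.368) and in limma (-1.23 and -1.28, adjusted p = 0.418 and 0.408). Partner genes called lower were 2 in DESeq2 and 0 with the offset or limma. The cause was not tested in any of these cases.

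All genes called higher and lower numbered 111 and 85 without the filter, 613 and 503 in DESeq2, 3 and 1 with the offset and 0 and 0 in either limma fit (1333 and 1381 at an unadjusted p under 0.05). Leaving out a library gave 24 to 238 higher and 18 to 144 lower. The log2 ratio of summed levels moved from -0.02 in TPM to -0.15 in CPM for long-chain genes and from -0.41 to -0.16 for medium-chain genes.

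The labels do not say whether libraries with the same replicate number were paired. Their deviations from the group mean were nearly uncorrelated across genes (-0.0148), which cannot settle how the libraries were prepared. The fit with the replicate block called 62 genes higher and 36 lower, and 0 spiral genes. Each spiral gene had 892 counts or more in a library, and the number of libraries, 2 a group, limits the precision.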
